A study of Mus musculus with 6 samples.

Results

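Collagen VI is a matrix protein whose unit is a trimer of an α1, an α2 and an α3 chain, encoded by Col6a1, Col6a2 and Col6a3. These 3 genes were chosen by symbol, and every probe set whose platform annotation gives exactly 1 of these symbols was taken. They had 4 probe sets of the 45037 that were not controls, and made up 3 of the 18193 genes measured. The choice rested on earlier results of these arrays, in which Col6a3 differed between the groups, so the values of the chains are given as a description, with no test. The arrays measured RNA of pancreatic islets from male C57Bl6 mice aged 12 weeks. In 3 samples (Tead1KO) the mice had a knockout of Tead1 in beta cells, and in the other 3 (Flox) the genotype was labelled Flox. The labels give no treatment beyond islet isolation. Tead1 encodes a DNA-binding protein that acts with Yap1 and Wwtr1. The labels name neither the Cre driver nor whether Flox mice carried a Cre, and they do not say which mice each array held. Where arrays of a group share mice, the tests below measure only a technical spread.

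The chains are made mainly by fibroblasts and other stromal cells. The trimer forms inside the cell and needs an α1, an α2 and an α3 chain. Trimers then join into dimers and tetramers, which are secreted and line up end to end as beaded microfibrils beside basement membranes. In the pancreas such microfibrils lie around islets and ducts and along vessels. A fragment cleaved from the end of the α3 chain, endotrophin, acts as a signal on nearby cells. The islets were freed with collagenase, purified by density and picked by hand, so the amount of surrounding stroma can differ between samples. In such bulk samples, fewer cells of a type and less RNA per cell cannot be told apart.

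Because the knocked-out factor binds DNA, the stretch of 250 bases before the start site of each chain is shown, from RefSeq on GRCm38.p6, all on the minus strand. Capitals mark matches, on either strand, to the TEAD core GGAATG, which reads as CATTCC on the opposite strand, or to the AP-1 site, spelled TGANTCA, a motif often found near TEAD sites. The Col6a1 stretch is at chr10:76726045-76726294, that of Col6a2 at chr10:76623405-76623654 and that of Col6a3 at chr1:90843972-90844221.
Col6a1: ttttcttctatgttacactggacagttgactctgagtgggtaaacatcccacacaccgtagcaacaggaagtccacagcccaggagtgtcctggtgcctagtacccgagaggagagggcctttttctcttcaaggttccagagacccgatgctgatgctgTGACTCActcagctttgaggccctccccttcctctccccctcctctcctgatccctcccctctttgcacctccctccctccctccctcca
Col6a2: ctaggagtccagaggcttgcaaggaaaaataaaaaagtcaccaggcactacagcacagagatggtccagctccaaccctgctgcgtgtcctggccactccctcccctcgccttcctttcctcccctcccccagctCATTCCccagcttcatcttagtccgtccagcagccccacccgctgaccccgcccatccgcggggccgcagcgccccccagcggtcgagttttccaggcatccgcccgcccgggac
Col6a3: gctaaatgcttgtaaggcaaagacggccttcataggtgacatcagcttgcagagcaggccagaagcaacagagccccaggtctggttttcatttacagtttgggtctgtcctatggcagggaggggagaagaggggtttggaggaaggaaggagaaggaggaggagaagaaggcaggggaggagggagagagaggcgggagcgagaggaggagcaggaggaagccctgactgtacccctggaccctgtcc
Col6a2 held 1 TEAD match, CATTCC, which began 115 bases before its start site, and Col6a1 held 1 AP-1 match, TGACTCA, which began 90 bases before its own. The letters of neither motif were found in the Col6a3 stretch, or in that of a further Col6a2 start site. Of 32851 promoter stretches of this length in the table, 12.6% held the TEAD core and 6.75% the AP-1 site. The matches are descriptions of letters and show no binding.

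Col6a3, the longest chain and the source of endotrophin, read far lower in Tead1KO islets. Its log2 signals were 9.97, 10.56 and 9.71 in Flox replicates 1 to 3. They were 7.01, 7.41 and 6.89 in Tead1KO replicates 1 to 3. The groups lay apart, with a gap of 2.29 between the lowest Flox and the highest Tead1KO array. The means were 10.08 ± 0.44 and 7.10 ± 0.28 (SD, n = 3 each). The log2 difference, Tead1KO minus Flox, was -2.98 (SE 0.25), which is 7.88-fold lower on the linear scale. It ranked 1 of 18193 genes from the lowest difference. The Tead1KO mean still stood 2.40 above 4.70, the highest value of bacterial control probe sets that had not been spiked in, which served as background. The gene had 1 probe set, so no further probe set was there to compare, and no source used here says which part of the transcript it reads.

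Col6a2, which encodes the α2 chain, moved the opposite way. Its brighter probe set, used for the gene, read 8.13, 8.16 and 7.98 in Flox replicates 1 to 3. In Tead1KO it read 8.85, 8.59 and 8.61. Every Tead1KO array lay above every Flox array, with a gap of 0.42. The means were 8.09 ± 0.10 in Flox and 8.68 ± 0.15 in Tead1KO (SD, n = 3 each), a log2 difference of 0.59 (SE 0.16) or 1.51-fold higher. The dimmer probe set, an _x_at set that can also match other transcripts, read 7.67, 7.42 and 7.41 in Flox and 7.76, 7.63 and 7.71 in Tead1KO. Its groups overlapped at Tead1KO replicate 2, and its difference was smaller, 0.20 (SE 0.16). With the gene's probe sets averaged, the difference was 0.40.

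Col6a1, which encodes the α1 chain, was split among the Tead1KO arrays. It read 7.48, 7.48 and 7.46 in Flox, a range of 0.025. In Tead1KO it read 8.16 and 8.21 in replicates 1 and 2 but 7.21 in replicate 3, below every Flox array. The means were 7.47 ± 0.014 and 7.86 ± 0.56 (SD, n = 3 each), with a log2 difference of 0.39 (SE 0.27). The difference was 0.71 without Tead1KO replicate 3, 0.24 without replicate 1 and 0.22 without replicate 2. With the level of each array's spiked hybridization controls as a covariate it was 0.68. The groups overlapped because of Tead1KO replicate 3 alone.

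**Figure D1:**
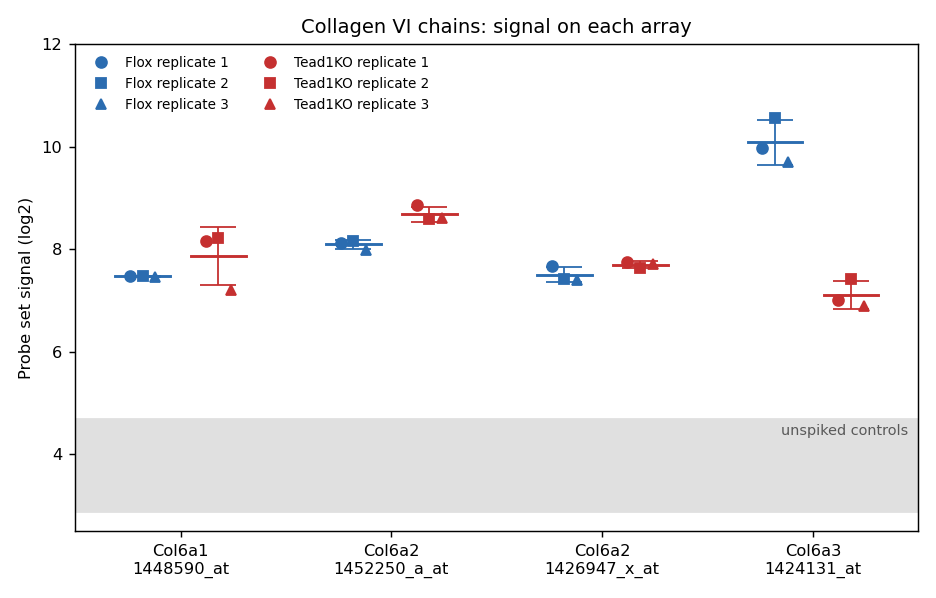
Probe set signal (log2, y axis) of the 4 probe sets of Col6a1, Col6a2 and Col6a3; each symbol is 1 array (blue for Flox and red for Tead1KO, shaped by replicate), horizontal lines are group means, error bars are SD of 3 arrays, and grey shading spans the unspiked controls, from 2.87 to 4.70. Col6a3 read 9.71 to 10.56 in Flox and 6.89 to 7.41 in Tead1KO, while the brighter Col6a2 probe set lay higher in every Tead1KO array.

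The change of a chain can be set against that of another within each array, since the unequal brightness of the probe sets drops out when each is taken from its own Flox mean. The change of Col6a3 less that of Col6a1 was -3.76, -3.41 and -2.94 in Tead1KO replicates 1 to 3, with a mean of -3.37 ± 0.41 (SD, n = 3). Less that of Col6a2 it was -3.83, -3.16 and -3.71, with a mean of -3.57 ± 0.36. The Flox arrays spread around 0 with an SD of 0.43 and 0.36 in these measures. The α3 transcript thus departed from those of its partner chains in every Tead1KO array. Between the partners, the change of Col6a1 less that of Col6a2 was -0.073, 0.25 and -0.77, which spanned 0. Col6a1 and Col6a2 ranked 956 and 351 of the genes from the highest difference, at the other end of the order from Col6a3.

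Genes were called at a limma adjusted p under 0.05 (Benjamini-Hochberg over all genes). By this rule 0.517% of genes were called, 0.181% as lower and 0.335% as higher. The 3 chains were part of this fit, but their calls are left out, since this contrast chose them. As a description, 1 chain was lower and 1 higher with arrays that did not overlap, as were 7.27% and 5.8% of all genes.

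The arrays were not alike in quality. On every array the 3' probe sets of the actin and Gapdh controls read above their 5' ones. The log2 gaps were 3.09 to 3.38 for actin and 3.70 to 4.03 for Gapdh. Tead1KO replicate 3 had the highest hybridization controls, which are control transcripts spiked into every sample (13.23, against 10.60 to 12.09 on the other arrays). It also had the narrowest interquartile range (2.65, against 2.99 to 3.32) and the lowest mean correlation with the others (0.969, against 0.984 to 0.986). It is the array on which Col6a1 was low, and the covariate for these controls moved the difference of Col6a1 from 0.39 to 0.68. As the controls of this array stood apart, the covariate is not separate from leaving the array out, which gave 0.71. Whether array quality lowered Col6a1 was not tested. Without this array Col6a3 differed by -2.87 and Col6a2 by 0.63. The brighter Tead1 probe set read 6.99 to 7.40 in Flox and 5.95 to 7.49 in Tead1KO. The array labelled Tead1KO replicate 2 read highest, at 7.49, above every Flox array. The labels give the knockout as one of beta cells, other islet cells may hold Tead1, and no source used here says whether the probe set lies in the deleted part, so these values cannot check the labels. Without that array Col6a3 differed by -3.13, Col6a2 by 0.64, Mmp2, a gene taken up below, by 1.01 and Mlph, a neighbour of Col6a3, by -1.94.

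Further collagen VI chains, α4 and α5, which can replace α3 in the trimer in some tissues, were near or within background. Col6a4 averaged 4.86 ± 0.34 in the Flox arrays and 4.64 ± 0.044 in Tead1KO (SD, n = 3 each). Col6a5 read 3.68 and 3.62, within background in both groups. Of these 2 measured chains, 0 were called by limma (0 at an unadjusted p under 0.05). Their median difference was -0.15, against -0.0074 over all genes. No rise of an α3-like chain was detected at these signals. Col6a6 was not analysed here.

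The enzymes that cut collagen VI or its α3 chain included the 1 called gene of the pathway lists. Mmp2, a gelatinase of stromal cells, read 6.28, 6.22 and 6.25 in Flox and 7.36, 7.61 and 7.15 in Tead1KO. All Tead1KO arrays were above all Flox arrays. The log2 difference was 1.13 (SE 0.17, limma adjusted p = 0.0408). Its dimmer probe set differed by 0.66 (adjusted p = 0.532 over all probe sets). The call ended when any 1 of the Flox arrays or Tead1KO replicate 1 was left out (adjusted p 0.179 to 0.278) and with median centring (0.12). Over all 16 alternatives the adjusted p ran from 0.00648 to 0.278 and the difference stayed between 0.89 and 1.25. Of 7 measured enzymes, 1 was called higher and 0 lower, against 0.335% and 0.181% of all genes, and the median was 0.15. Bmp1, which releases endotrophin from the α3 chain, differed by -0.35 (adjusted p = 0.741). Mmp14, a membrane-bound protease that can cleave collagen VI, differed by 0.29 (adjusted p = 0.734). Its arrays, like those of Mmp2, did not overlap and were higher in Tead1KO, as for 5.8% of all genes. Furin, a proprotein convertase, differed by 0.28.

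Matrix partners lay mostly higher, though 0 of 9 were called by limma (3 at an unadjusted p under 0.05). Their median was 0.22 and 7 lay above 0. Decorin (Dcn), a small proteoglycan that binds collagen VI microfibrils, read 6.56, 6.79 and 6.79 in Flox and 7.56, 8.44 and 7.48 in Tead1KO. Its difference was 1.11 (SE 0.27, limma adjusted p = 0.2). Its dimmer probe set was within background. Biglycan (Bgn), a proteoglycan that helps to organise the microfibrils, read 9.43, 9.02 and 8.97 in Flox and 10.22, 9.44 and 10.26 in Tead1KO. Its difference was 0.83 (SE 0.25, adjusted p = 0.374), and its other, dimmer probe sets gave 0.64 and 0.59. Col14a1, a fibril-associated collagen, differed by 0.53 (adjusted p = 0.549) and Tnxb, a tenascin, by 0.29 (adjusted p = 0.707). These 4 genes had non-overlapping arrays, higher in Tead1KO, as did 5.8% of all genes. Fn1, which encodes fibronectin, differed by -0.27 and Hspg2, which encodes perlecan, by 0.0087.

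The receptors lay on both sides of 0, from -0.39 to 0.38. Of 9 measured, 0 were called (0 at an unadjusted p under 0.05), the median was -0.05 and 0 had non-overlapping arrays. Itgb1, the β subunit shared by the collagen-binding integrins, averaged 8.75 ± 0.32 in the Flox arrays and 9.13 ± 0.27 in Tead1KO (SD, n = 3 each), a difference of 0.38 (adjusted p = 0.761). Ddr1, a collagen-activated receptor kinase, differed by -0.39 (adjusted p = 0.778) and Itga1, an α subunit for collagen, by 0.15. Antxr2, an anthrax toxin receptor that takes up collagen VI, read within background in both groups (difference 0.30, adjusted p = 0.772). Cspg4, a proteoglycan of pericytes that binds collagen VI, differed by -0.11.

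Genes that fold and modify collagen chains lay on both sides of 0. Of 17 measured, 0 were called by limma (1 at an unadjusted p under 0.05), 9 lay above and 8 below 0, and the median was 0.012. P4ha2, a prolyl hydroxylase subunit, differed most, by -0.88 (SE 0.26, adjusted p = 0.364), with every Tead1KO array below every Flox array. P3h4 differed by 0.26 (adjusted p = 0.75), with every Tead1KO array above every Flox array. Arrays did not overlap for 1 lower and 1 higher of the list, against 7.27% and 5.8% of all genes. Mia3, which helps collagen leave the endoplasmic reticulum, differed by -0.43 (adjusted p = 0.75). Crtap, part of the prolyl 3-hydroxylase complex, differed by -0.54 (adjusted p = 0.772). Serpinh1, the collagen chaperone, differed by 0.19.

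**Figure D2:**
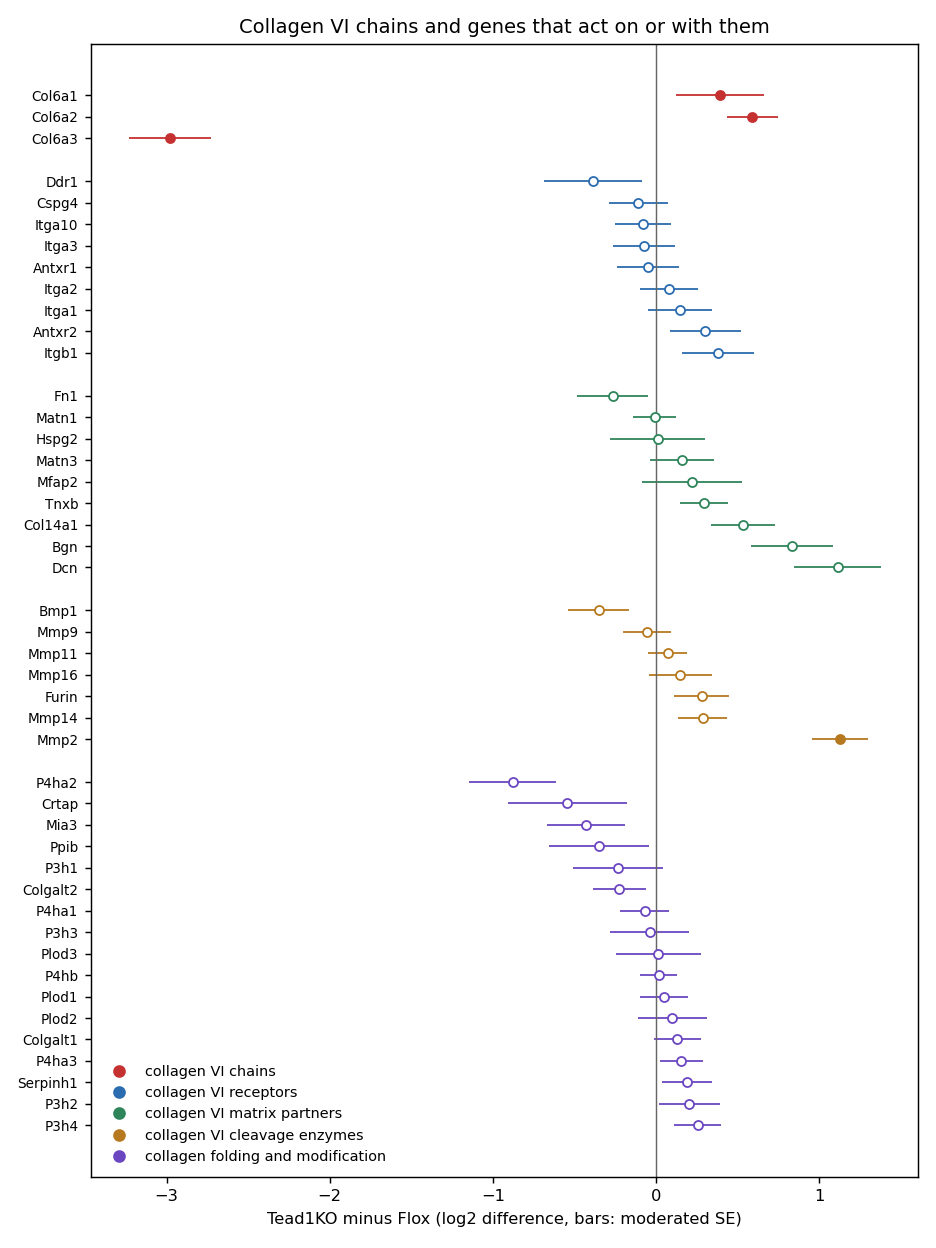
Log2 difference, Tead1KO minus Flox (x axis), with the moderated SE as bars, for the collagen VI chains (red, filled, not tested) and for 42 measured receptors, matrix partners, cleavage enzymes and collagen-modifying genes; other filled points passed the limma test over all genes. Col6a3 lies alone at -2.98, and Mmp2 at 1.13 is the only filled point outside the chains.

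Other collagens lay on both sides of 0, far from the value of Col6a3. Of 16 measured fibrillar and basement membrane collagens, 0 were called by limma (3 at an unadjusted p under 0.05), with differences from -0.58 to 0.72 and a median of 0.082. Col1a2, a chain of collagen I, differed by 0.62 (SE 0.18, adjusted p = 0.325), and its dimmer probe set above background by 0.20. Col5a1, a chain of collagen V, differed by 0.72 (adjusted p = 0.59), and Col18a1, a basement membrane collagen, by -0.58 (adjusted p = 0.662). The dimmer Col18a1 probe set, also above background, differed by -0.15, with overlapping arrays. Col1a1 differed by 0.15.

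Marker lists for the cells that could supply the chains were read on the same arrays. All 10 fibroblast and stellate markers lay above 0, with a median of 0.38, and 0 were called by limma (4 at an unadjusted p under 0.05). Of these, Dcn, Col1a1, Col1a2 and Col3a1 also stand in the lists above. Its summed linear signal, given as log2, was 10.70 to 11.03 in Flox and 10.98 to 11.59 in Tead1KO. Its brightest members were Col1a2 and Col3a1 (difference 0.064), and Pdgfra, a defining marker, stood at the edge of background (4.67 and 4.71). Of 11 pericyte and smooth muscle markers, 7 lay below 0 and 0 were called (4 at an unadjusted p under 0.05), and the median was -0.10. The summed signal of that list was 11.38 to 11.62 in Flox and 10.82 to 11.30 in Tead1KO. Rgs5, the brightest, differed by -0.62 (adjusted p = 0.654) and Acta2, smooth muscle actin, by -0.99 (adjusted p = 0.294). The list went both ways, with non-overlapping arrays in 3 members lower and 2 higher in Tead1KO, against 7.27% and 5.8% of all genes. The lower ones were Acta2, Myh11 at -0.86 (adjusted p = 0.169) and Tagln at -0.28 (adjusted p = 0.761). The higher ones were Kcnj8, a potassium channel subunit of pericytes, at 0.62 (adjusted p = 0.467), and Abcc9, its regulatory partner, at 0.42 (adjusted p = 0.668). Pdgfrb, a defining pericyte marker, differed by 0.20 and Cnn1, a smooth muscle marker, by 0.21, both with overlapping arrays. The part of either cell type in the values of the chains was not tested.

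The remaining lists gave the following sums. Endothelial markers summed to 12.58 to 12.61 in Flox and 12.61 to 12.62 in Tead1KO, with Plvap and Kdr the brightest. Macrophage and leukocyte markers summed to 11.36 to 11.93 and 11.50 to 12.72, with C1qa and Csf1r the brightest. C1qa differed by 1.08 (adjusted p = 0.518), while Csf1r differed by -0.25 and Lyz2 by -0.16, and the median of the list was 0.075. Mesothelial markers summed to 8.40 to 9.76 in Flox and 7.83 to 8.33 in Tead1KO, which rested on Msln (difference -1.10, adjusted p = 0.518). Of that list, Lrrn4 and Wt1 were within background in both groups, and Upk3b differed by 0.10. Schwann cell markers summed to 7.86 to 8.09 and 7.85 to 8.52, with Sox10 and Ngfr the brightest. Acinar markers spread widely within both groups, 14.47 to 16.67 and 14.64 to 16.54, with Ctrb1 and Prss2 the brightest. Ductal markers summed to 12.84 to 12.97 and 12.60 to 13.00, which rested on Krt7 and Krt18, the brightest. The dimmer Krt19 differed by -0.46 (adjusted p = 0.775) and Muc1 by 0.15. Sox9 differed by -0.19, with all Tead1KO arrays below all Flox arrays, as for 7.27% of all genes. Cftr was within background in both groups. Beta cell markers summed to 16.93 to 16.97 and 16.74 to 16.95, with Ins2 and Iapp the brightest. Ins2, with a mean of 15.69 in both groups, lay close to 15.71, the highest value on any array. Besides Iapp every measured marker lay below 0, and the median over the 7 measured was -0.66, the farthest from 0 of the lists given here. Ucn3, a peptide of mature beta cells, and Nkx6-1, a beta cell transcription factor, each differed by -0.95 (adjusted p = 0.056 and 0.0637). Slc2a2, the glucose transporter, differed by -0.82 (adjusted p = 0.194) and Pdx1, a transcription factor, by -0.66 (adjusted p = 0.541). All Tead1KO arrays lay below all Flox arrays for these 4 genes, as for 7.27% of all genes. Their part in the values of the chains was not tested. The other islet hormone cells summed to 15.84 to 16.01 and 15.85 to 16.02, with Gcg and Ppy the brightest. In these lists 0 genes were called by limma, with 6 at an unadjusted p under 0.05.

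The genes next to the chains on the chromosome were read as well, a property that the choice of members did not use, although the fall of Mlph was known. Order was taken from the RefSeq gene table of GRCm38.p6. Col6a2 and Col6a1 lie on chromosome 10 with 2 gene records between them, and Col6a3 lies apart from them on chromosome 1. On the side after Col6a3, the nearest measured gene was Mlph, which encodes melanophilin, an adaptor between secretory organelles and a myosin motor, with 1 record between them. Mlph read 6.91, 7.14 and 6.64 in Flox and 4.77, 5.03 and 5.14 in Tead1KO. Its groups lay far apart, with a log2 difference of -1.92 (SE 0.19, limma adjusted p = 0.00685). A dimmer Mlph probe set, within background in both groups, differed by -0.38, and with the gene's probe sets averaged the difference was -1.15 (adjusted p = 0.0392). Mlph was no longer called when Flox replicate 1 (adjusted p = 0.0646) or Tead1KO replicate 1 (0.0784) was left out.

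No other gene near Col6a3 was called. The next measured gene after it, Rab17, a small GTPase of epithelial trafficking, differed by -0.37 (adjusted p = 0.775). On the other side, Cops8, a signalosome subunit, differed by -0.052 and Ackr3, a chemokine receptor within background here, by -0.18. Of the 20 nearest measured genes, 10 on each side, 1 was lower and 0 were higher by the limma call, against 0.181% and 0.335% of all genes. Of the 20, 7 were within background, and the median was 0.034. Arrays did not overlap for 1 lower and 2 higher, against 7.27% and 5.8% of all genes. Sh3bp4, the ninth before Col6a3, differed by 0.92 (adjusted p = 0.106).

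Around Col6a2 and Col6a1, 1 of 20 measured neighbours was called higher by limma and 0 lower, against 0.335% and 0.181% of all genes. It was 2610028H24Rik, the seventh on the Col6a2 side, which read 5.36, 5.58 and 5.47 in Flox and 8.55, 8.05 and 8.37 in Tead1KO. Its log2 difference was 2.85 (SE 0.18, limma adjusted p = 0.00104), and it was called under all 16 alternatives. Nearer genes differed less. Ftcd and Spatc1l, the closest on that side, differed by 0.20 and 0.21 (adjusted p = 0.781 and 0.82). On the Col6a1 side, Pcbp3, an RNA-binding protein gene, differed by -0.64 (adjusted p = 0.464) and Slc19a1, the folate transporter, by 0.32 (adjusted p = 0.772). Gm10941, the fourth on that side, differed by -1.07 (adjusted p = 0.0892), with all Tead1KO arrays below all Flox arrays. The median over the 20 was -0.084, with 8 above 0 and 12 below. Arrays did not overlap for 3 lower and 1 higher, against 7.27% and 5.8% of all genes.

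**Figure D3:**
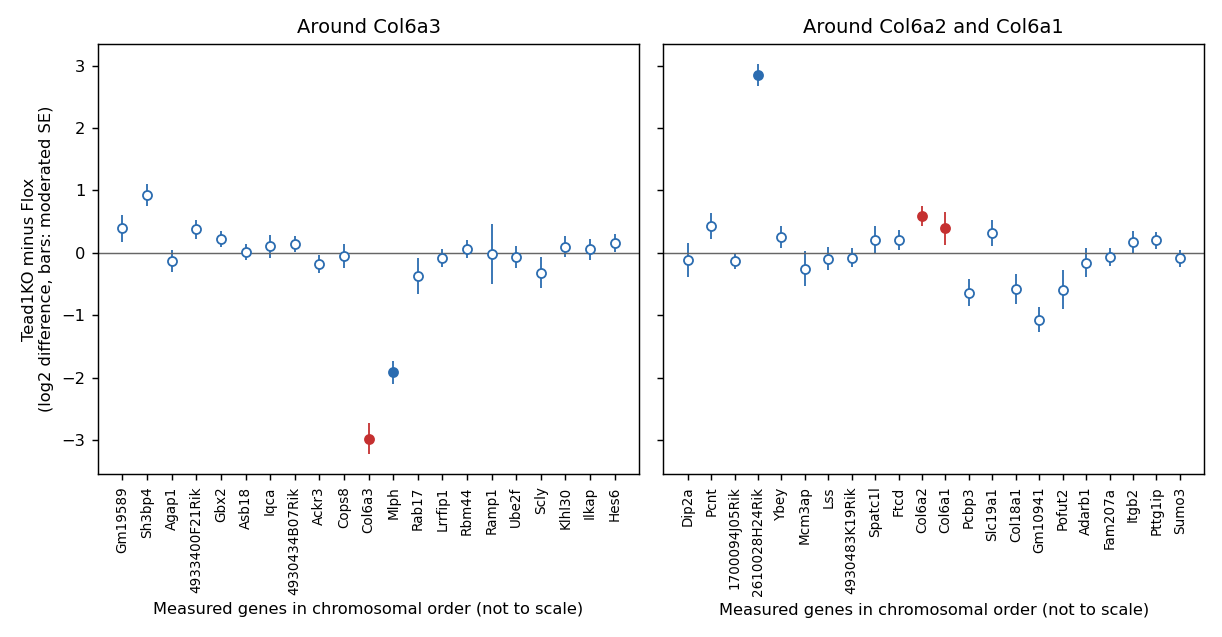
Log2 difference, Tead1KO minus Flox (y axis, bars are the moderated SE), of the 10 nearest measured genes on each side of Col6a3 (left) and of the Col6a2 and Col6a1 pair (right), in chromosomal order and not to scale; red points are the chains (not tested), and filled blue points passed the limma test. Mlph, beside Col6a3, lies at -1.92, and 2610028H24Rik lies at 2.85 among neighbours of Col6a2.

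Genes whose pattern over the 6 arrays was closest to that of Col6a3 were found by the root mean square difference of signals centred on each gene's mean, over 10461 genes with a mean above 6. The closest was Adam32, of the ADAM protease family, at 0.356, which read 7.67, 7.89 and 7.02 in Flox and 5.16, 5.63 and 4.50 in Tead1KO. Next came Plut, a non-coding RNA beside Pdx1, at 0.425, which read 10.49, 10.76 and 10.40 in Flox and 7.75, 7.56 and 8.31 in Tead1KO. Both were picked for likeness to Col6a3, and like it had Flox replicate 2 as the highest array and all Tead1KO arrays below all Flox arrays. The latter held for 7.27% of all genes. Then followed Epb41l4a, of the band 4.1 family, at 0.518, and Gad1, which makes GABA, at 0.594. Gad1 was split in Tead1KO, with 5.22, 7.30 and 5.17 against 8.23, 9.20 and 8.73 in Flox. Lgi1, a secreted leucine-rich repeat protein, stood at 0.603 and Aox1, an aldehyde oxidase, at 0.627. Their differences ran from -1.76 (Aox1) to -2.83 (Gad1), against -2.98 for Col6a3. Since this measure uses the same arrays, the match says only that these genes came nearest to Col6a3 on them. Col6a1 stood at 1.72 and Col6a2 at 1.81, ranks 9817 and 10157 of the 10461.

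**Figure D4:**
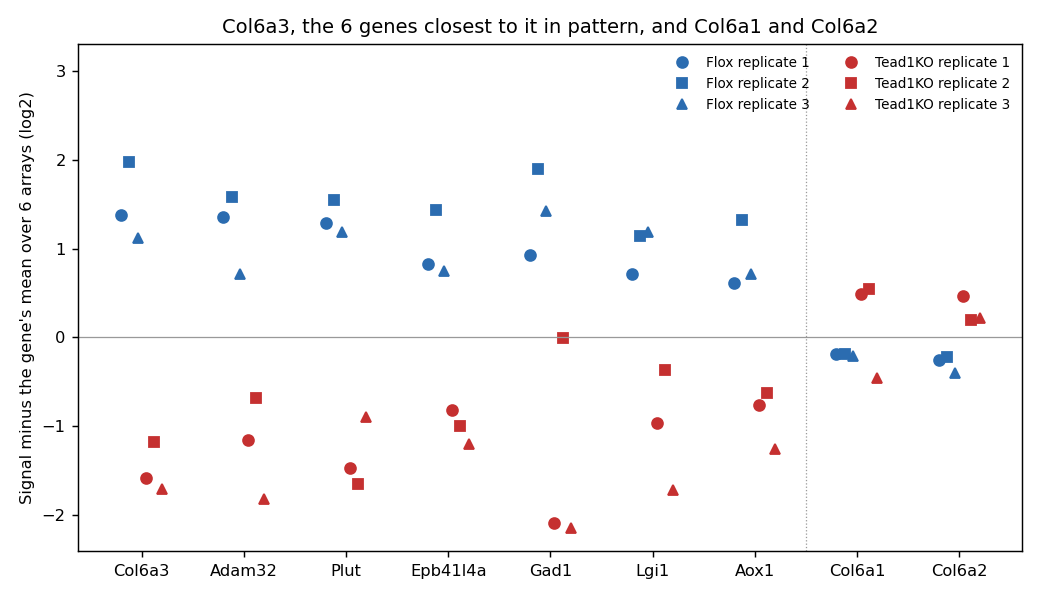
Signal minus the gene's mean over the 6 arrays (log2, y axis) for Col6a3, the 6 genes closest to it and, right of the dotted line, Col6a1 and Col6a2; each symbol is 1 array (blue for Flox and red for Tead1KO, shaped by replicate). In the 6 genes, which were picked for likeness to Col6a3 on these arrays, all Tead1KO arrays lie below all Flox arrays, as in Col6a3. All Tead1KO arrays of Col6a2 lie above its Flox arrays.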

How the data were processed

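The authors deposited log2 signals per probe set of an Affymetrix mouse expression array. The submitters' processing notes name Affymetrix Expression Console as their tool. Its version, background correction, scaling and summary method were not given in the sources used here, and no scanner files were used. Of 45101 probe sets, 64 controls were left out; 34945 of the other 45037 had 1 gene symbol, 932 had several and 9160 had none here. By gene identifier 34741 matched RefSeq. The brightest probe set by mean over the 6 arrays stood for a gene, with no filter on dim signals. Groups were compared with limma 3.58.1 (lmFit, eBayes with trend=TRUE, no covariate) in R 4.3.3, in a procedure tested on simulated data. SE is the moderated standard error, and unspiked controls (2.87 to 4.70) gave the background. For arrays, their number limits the precision.

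The members and the 16 gene lists were chosen with earlier results of these data known. Named were the chains, called list genes, up to 4 genes with the smallest p in each pathway list, the 2 brightest of each marker list, the 2 nearest measured neighbours on each side and called neighbours, and the 6 genes closest to Col6a3. Others were named after their values were seen.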

Additional observations from a re-analysis of the deposited data

How the results depend on the processing

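Under 16 alternatives the direction of the chains held. Several of these could not change a chain's difference, so the count of 16 overstates the check. They alter only the variance estimate, the set of genes or probe sets tested, or add the replicate block. Averaging probe sets could not change Col6a1 or Col6a3, which have 1 each. Col6a3 lay between -3.16 and -2.74, Col6a2 between 0.40 and 0.72 and Col6a1 between 0.22 and 0.71. Col6a2 differed by 0.72 with quantile normalization and by 0.40 with a gene's probe sets averaged, and Col6a1 by 0.68 with the covariate for the hybridization controls. Leaving out each array in turn gave -3.16 to -2.74 for Col6a3, 0.50 to 0.64 for Col6a2 and 0.22 to 0.71 for Col6a1. The median over all genes was -0.0074, and -0.069 with median centring.

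The count of called genes, 94, was 151 with quantile normalization, 58 with median centring and 242 with a covariate for the hybridization controls. Each array left out in turn gave 12 to 303 (20, 18 and 17 without Flox replicates 1 to 3, and 12, 303 and 177 without Tead1KO replicates 1 to 3). With the replicate number as a block it was 97. Whether the numbers pair the arrays could not be told. The deviations of same-numbered arrays correlated with r = 0.064, 0.35 and -0.20. Between differently numbered arrays of the 2 groups, r ran from -0.42 to 0.35. The hybridization controls of same-numbered arrays, Flox then Tead1KO, were 11.89 and 12.09 for replicate 1 and 10.96 and 10.87 for replicate 2. For replicate 3 they were 10.60 and 13.23.

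The 1 call among cleavage enzymes, Mmp2, became 0 with median centring, averaged probe sets, every probe set tested and the replicate block (adjusted p = 0.0661). It was 0 to 1 when each array was left out in turn. Matrix partners had 1 call with quantile normalization and 1 with the control covariate, and fibroblast markers 1 and 2. Macrophage markers had 1 with that covariate and the neighbours of Col6a1 and Col6a2 had 2. Beta cell markers had 3 with quantile normalization, 3 with the covariate and 1 with dim genes omitted. With arrays left out in turn, matrix partners, folding genes, fibroblast markers and pericyte markers each had 0 to 1 calls, beta cell markers 0 to 3 and neighbours of Col6a3 0 to 2. The cause of these changes was not tested. With dim genes omitted, the count for the α4 and α5 chains could not be made.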
